A study of Mus musculus with 6 samples.

Results

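Fatty acid beta-oxidation genes were followed in bone marrow-derived macrophages (BMDMs), macrophages grown out of mouse bone marrow with the growth factor M-CSF. Members were chosen by symbol, and the 10 genes are Cpt1a and Cpt2 of the carnitine shuttle, the acyl-CoA dehydrogenase genes Acadl, Acadm, Acadvl and Acad11, the trifunctional protein genes Hadha and Hadhb, and the electron transfer genes Etfa and Etfdh. All 10 could be read from the deposited table of 35434 genes, and all 10 were among the 9800 genes with a mean of at least 1 FPKM (fragments scaled by gene length and by the total of the library) that were tested.

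The study compared 3 Ctrl libraries with 3 ZA libraries. The cells of both groups came from femurs of C57BL/6 mice and were cultured for 7 days with M-CSF. ZA is zoledronic acid, a nitrogen-containing bisphosphonate given against bone loss, and the ZA cells were taken 12 h after its addition. The concentration used for these libraries is not given in the sources used here, and Ctrl cells received no ZA. The labels do not say whether the replicates came from separate animals, so p-values measure only the spread between these libraries, which may be technical.

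Beta-oxidation breaks long-chain fatty acids into acetyl-CoA inside mitochondria. The carnitine shuttle carries the acyl chain through the inner membrane, an acyl-CoA dehydrogenase chosen by chain length makes the first double bond, and the trifunctional protein carries out the remaining steps of each round for long chains. Electrons from the dehydrogenases pass to electron transfer flavoprotein (ETF), then through its dehydrogenase to ubiquinone in the respiratory chain. In macrophages the pathway is best known from cells activated by interleukin-4.

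Library totals were between 41230600 and 42155808 fragments. The members had between 674 and 7347 fragments in a library, against a median of 1395 over the genes tested. Csf1r, the M-CSF receptor, was between 767 and 848 FPKM, and the summed FPKM of 8 macrophage markers was 23531 to 27424 in Ctrl and 24407 to 27884 in ZA, and 2 of the 8 (Csf1r and Adgre1) had unadjusted p-values under 0.05, both higher with ZA. Of the osteoclast and the stroma markers 1 each was lower at that threshold, out of 2 and 4 tested. For comparison with these counts and the next, 7.50% of all genes tested were higher and 4.85% lower at that threshold. Markers of lymphocytes, dendritic cells and adipocytes summed to at most 0.789 FPKM in a library. Of 10 neutrophil and progenitor markers 6 were tested, 4 of them (Mpo, Prtn3, Ngp and Elane) with an unadjusted p-value under 0.05 and lower in ZA, and none with an adjusted p-value under 0.05. The sum of the 10 was 35.4 to 50.9 FPKM in Ctrl and 31.5 to 37.1 in ZA, and Ly6g was at 0 in all 6 libraries. The part of such cells in the results below was not tested, and in bulk RNA a change in the number of expressing cells cannot be told apart from a change in RNA per cell.

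Levels of the 10 genes differed little between ZA and Ctrl, with mean FPKM between 10.8% lower (Hadhb, percent difference -10.8) and 13.9% higher (Acad11) in ZA. After Benjamini-Hochberg adjustment of limma's p-values, 0 of the 10 members were under 0.05, where 0.367% of all genes tested were. With limma-voom 1 member (Hadhb) was under 0.05, where 132 of the 9800 genes tested were. Unadjusted, 3 members were under 0.05 (Hadhb and Hadha lower and Acad11 higher in ZA), against a background of 12.3% of all genes. Among all genes 7.50% were higher and 4.85% lower at that threshold. That balance turned with the scaling, to 5.18% and 6.78% with median centring and to 5.86% and 6.01% after quantile normalization. The median log2 fold change was -0.008 over the members and 0.010 over all genes tested, both on the log2(FPKM + 1) scale.

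**Figure D1:**
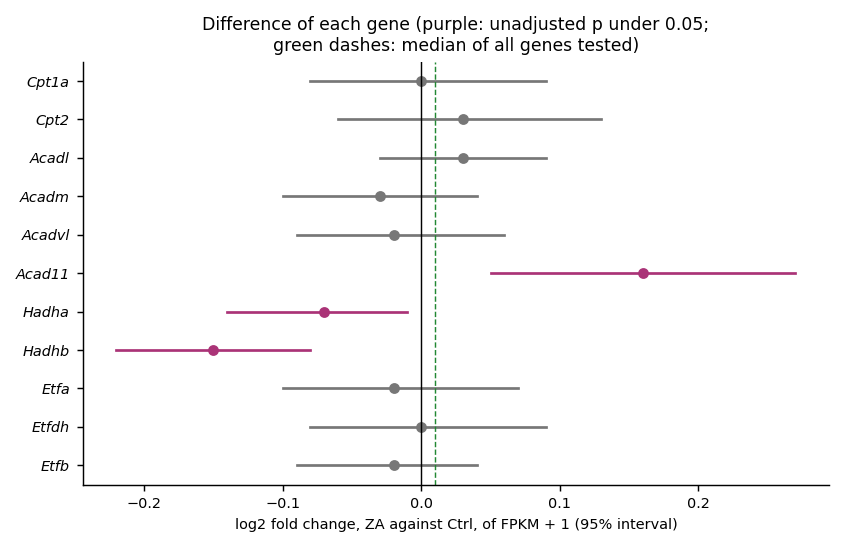
Log2 fold change of each member, and of Etfb as the partner of Etfa, in ZA against Ctrl on the log2(FPKM + 1) scale, with 95% intervals from limma (3 libraries a group). Hadhb (-0.15) and Hadha (-0.07) lie left of 0 and Acad11 (0.16) right of it, and the intervals of the other 7 members cross 0.

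For 4 members the groups did not overlap, Acadl and Acad11 above Ctrl and Hadha and Hadhb below. The background was 18.1% of all genes without overlap, 11.4% higher and 6.76% lower. With median centring, or after quantile normalization, 3 members did not overlap. The share of all genes without overlap was not computed under either scaling, so these counts have no background beside them. The 7 members with an unadjusted p-value over 0.05 had 95% intervals of the log2 fold change that together ran from -0.10 to 0.13.

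**Figure D2:**
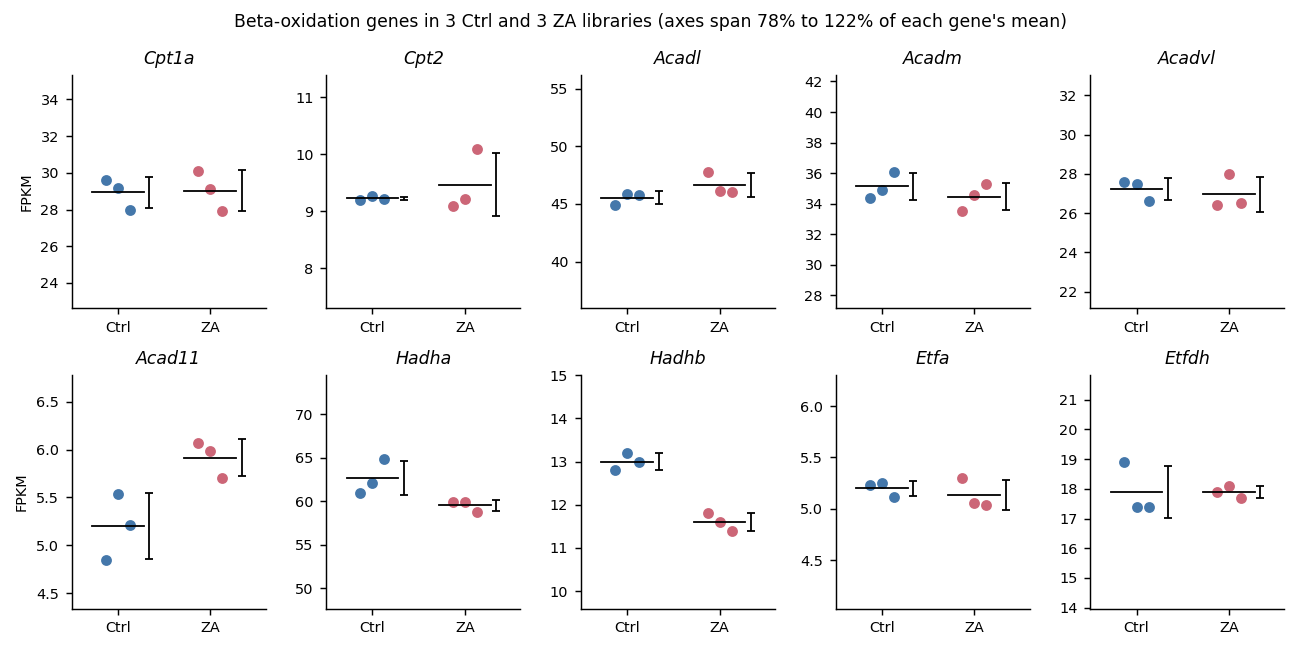
FPKM of the 10 members in the 3 Ctrl libraries (blue) and 3 ZA libraries (red), with replicates 1 to 3 from left to right, a line at the mean and a bar of 1 SD. Each axis spans the same relative range around the gene's mean and does not start at 0. Hadhb separates the groups most clearly, at 12.8 to 13.2 FPKM in Ctrl and 11.4 to 11.8 in ZA.

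Cpt1a encodes carnitine palmitoyltransferase 1A of the outer mitochondrial membrane, which joins long acyl chains to carnitine and is the step inhibited by malonyl-CoA. The Ctrl libraries held Cpt1a at 29.6, 29.2 and 28.0 FPKM and the ZA libraries at 30.1, 29.1 and 27.9. The groups overlapped throughout, with a mean and SD over 3 libraries of 29.0 ± 0.821 for Ctrl and 29.0 ± 1.10 for ZA. The log2 fold change of Cpt1a was 0.004 (95% interval -0.08 to 0.09, unadjusted p = 0.924 from limma).

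Cpt2, on the inner membrane, moves the acyl chain back from carnitine to CoA. It was at 9.20, 9.26 and 9.21 FPKM in Ctrl and at 9.09, 9.21 and 10.1 in ZA. Only ZA replicate 3 stood above the Ctrl values. The Ctrl libraries of Cpt2 varied by 0.366% of their mean, less than the 3.33% that counting error alone would give. The log2 fold change of Cpt2 was 0.03 (95% interval -0.06 to 0.13, unadjusted p = 0.476 from limma), and without ZA replicate 3 it was -0.010.

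The acyl-CoA dehydrogenases differ in the chains they take. Acadvl encodes the very-long-chain enzyme, which is bound to the inner membrane, Acadl the long-chain enzyme, Acadm the medium-chain enzyme whose loss is the most common inherited defect of the pathway in people, and Acad11 a less studied enzyme of the family that carries an additional kinase-like domain.

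Acadl was at 44.9, 45.9 and 45.8 FPKM in Ctrl and at 47.8, 46.1 and 46.0 in ZA. All ZA values were above all Ctrl values, but the lowest ZA value of Acadl and the highest Ctrl value differed by less than the SD of either group, 0.555 in Ctrl and 1.02 in ZA (n = 3). The log2 fold change of Acadl was 0.03 (95% interval -0.03 to 0.09, unadjusted p = 0.233 from limma).

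Acadm was at 34.4, 34.9 and 36.1 FPKM in Ctrl and at 33.5, 34.6 and 35.3 in ZA, with overlap and a log2 fold change of -0.03 (95% interval -0.10 to 0.04). Acadvl was at 27.6, 27.5 and 26.6 FPKM in Ctrl and at 26.4, 28.0 and 26.5 in ZA. ZA replicate 2 of Acadvl was the highest and ZA replicate 1 the lowest of all 6 libraries, and the log2 fold change was -0.02 (95% interval -0.09 to 0.06). Dvl2, which adjoins Acadvl in RefSeq, was at most at 12.1 FPKM.

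Acad11 had the largest positive log2 fold change of the 10 members and did not pass the adjusted threshold. Its FPKM was 4.85, 5.54 and 5.21 in the Ctrl libraries and 6.07, 5.98 and 5.70 in the ZA libraries. Every ZA value lay above every Ctrl value, and the Ctrl values were the more scattered, with an SD of 0.345 against 0.192 (n = 3). The mean of Acad11 was 5.20 FPKM in Ctrl and 5.92 in ZA, a difference of 13.9%. The log2 fold change of Acad11 was 0.16 (standard error 0.05, 95% interval 0.05 to 0.27, unadjusted p = 0.0116 and adjusted p = 0.255 from limma). Without the added 1, the log2 ratio of mean FPKM was 0.19.

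With 674 to 835 fragments in a library, Acad11 had the fewest fragments of the 10 members, and counting error alone accounts for a variation of 3.72% in Ctrl and 3.49% in ZA. The unadjusted p-value of Acad11 stayed under 0.05 when any of the 6 libraries was left out, between 0.00491 and 0.0405. In RefSeq the gene Ackr4 lies within the span of Acad11. Ackr4 was listed at 0 in 5 libraries and at 0.00888 FPKM in ZA replicate 1.

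The 250 bases before the RefSeq start of Acad11 (GRCm38.p6, chr9:104063474-104063723, plus strand) are shown because Acad11 alone among the dehydrogenases had an unadjusted p-value under 0.05. Capitals mark a CCAAT box read on the minus strand and a GC box (GGGCGG) read on the minus strand.
Acad11 promoter: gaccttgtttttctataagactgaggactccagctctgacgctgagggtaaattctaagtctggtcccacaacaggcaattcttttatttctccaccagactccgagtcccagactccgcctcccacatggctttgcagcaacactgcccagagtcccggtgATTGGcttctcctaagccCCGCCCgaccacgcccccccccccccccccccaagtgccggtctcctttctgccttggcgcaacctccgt

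Hadha and Hadhb encode the subunits of the mitochondrial trifunctional protein. The alpha subunit, from Hadha, carries the enoyl-CoA hydratase and 3-hydroxyacyl-CoA dehydrogenase activities, and the beta subunit, from Hadhb, carries the thiolase that splits off acetyl-CoA. Mean FPKM of both was lower in ZA, and neither passed the adjusted threshold with limma on log2(FPKM + 1).

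The genes lie head to head. By their RefSeq starts (GRCm38.p6) 272 bases separate them, Hadha reading along the minus strand and Hadhb along the plus strand, so the same DNA precedes both. The 228 bases that lie within 250 bases of both starts (chr5:30155003-30155230, plus strand) are shown as the stretch the members share, with 57.0% G and C, 15 CpG pairs and, in capitals, the single GC box. In GENCODE vM21, 1 longer Hadha transcript starts inside this stretch.
Hadha and Hadhb shared promoter: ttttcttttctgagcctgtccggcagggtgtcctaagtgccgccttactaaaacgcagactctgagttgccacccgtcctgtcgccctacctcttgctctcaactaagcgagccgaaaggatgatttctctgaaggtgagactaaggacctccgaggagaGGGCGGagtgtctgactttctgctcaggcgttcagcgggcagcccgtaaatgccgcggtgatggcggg

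Hadhb was at 12.8, 13.2 and 13.0 FPKM in the Ctrl libraries and at 11.8, 11.6 and 11.4 in the ZA libraries. The groups were well apart, with SDs of 0.184 in Ctrl and 0.212 in ZA (n = 3) around means of 13.0 and 11.6. The log2 fold change of Hadhb was -0.15 (standard error 0.03, 95% interval -0.22 to -0.08, unadjusted p = 0.000994 and adjusted p = 0.0948 from limma). With limma-voom on the whole fragments recovered from the same values, the adjusted p-value of Hadhb was 0.0277, and over the other alternatives on all 6 libraries it ran from 0.0751 to 0.230. Leaving out any library kept the log2 fold change between -0.16 and -0.14, with adjusted p-values from 0.0924 to 0.308.

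Hadha, the most abundant member, was at 61.0, 62.1 and 64.8 FPKM in Ctrl and at 59.9, 59.9 and 58.8 in ZA. The lowest Ctrl library of Hadha was close to the highest ZA libraries, and the groups did not overlap. The means and SDs of Hadha over 3 libraries were 62.6 ± 1.93 and 59.5 ± 0.634. The log2 fold change of Hadha was -0.07 (95% interval -0.14 to -0.01, standard error 0.03, unadjusted p = 0.0319 and adjusted p = 0.354 from limma). The unadjusted p-value of Hadha was over 0.05 without Ctrl replicate 2 (0.0569), Ctrl replicate 3 (0.120), ZA replicate 2 (0.0567) or ZA replicate 3 (0.0848), and with a variance prior without a trend (0.0643).

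Taking the ratio within a library removes the scaling between libraries. Ctrl libraries had Hadha to Hadhb ratios of FPKM of 4.77, 4.72 and 4.97, and ZA libraries of 5.06, 5.17 and 5.15. Every ZA library had a higher ratio than every Ctrl library. On the log2 scale the mean ratio and its SD over 3 libraries were 2.27 ± 0.039 for Ctrl and 2.36 ± 0.017 for ZA, a difference of 0.09 with p = 0.10 in a two-sided exact permutation test, the smallest value that 3 against 3 libraries allow, and 0.40 adjusted over the 4 ratios compared.

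**Figure D3:**
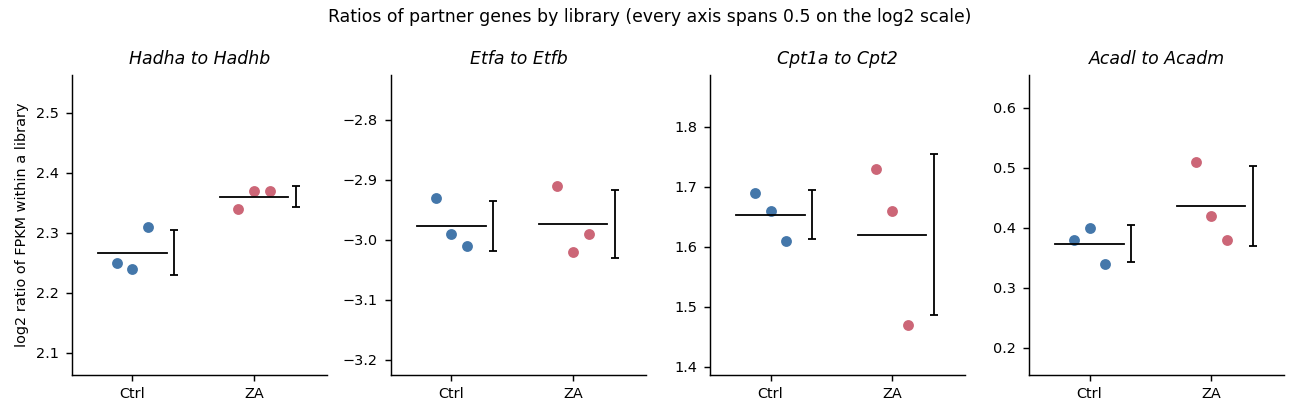
Log2 ratio of FPKM of partner genes within each library, Ctrl in blue and ZA in red, replicates 1 to 3 from left to right, with the mean and a bar of 1 SD. The Hadha to Hadhb ratio separates the groups (2.24 to 2.31 in Ctrl, 2.34 to 2.37 in ZA) and the other 3 ratios overlap.

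Etfa encodes the alpha subunit of ETF, the heterodimer that takes electrons from the dehydrogenases. It was at 5.23, 5.25 and 5.12 FPKM in Ctrl and at 5.30, 5.06 and 5.04 in ZA, with overlapping groups and a log2 fold change of -0.02 (95% interval -0.10 to 0.07, unadjusted p = 0.663 from limma). Etfb, the beta subunit and not one of the 10 genes, was at 39.7, 41.7 and 41.3 FPKM in Ctrl and at 39.7, 41.0 and 40.0 in ZA. The log2 ratio of Etfa to Etfb differed by 0.004 between groups (p = 1.0, two-sided exact permutation test, n = 3 a group).

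Etfdh encodes ETF-ubiquinone oxidoreductase, which hands the electrons to ubiquinone. It was at 18.9, 17.4 and 17.4 FPKM in Ctrl and at 17.9, 18.1 and 17.7 in ZA. Ctrl replicate 1 of Etfdh was the highest library and the other 2 Ctrl libraries the lowest, and the means of both groups were 17.9. Its log2 fold change was 0.000 (95% interval -0.08 to 0.09). The end of Etfdh overlaps that of Ppid in RefSeq over 23 bases, and Ppid was at 6.80 to 7.63 FPKM.

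The ratios within the shuttle and between dehydrogenases showed no separation. Ctrl libraries had Cpt1a to Cpt2 ratios of 3.22, 3.16 and 3.04, and ZA libraries of 3.31, 3.16 and 2.77 (difference in log2 ratio -0.03, p = 0.90, two-sided exact permutation test). For Acadl to Acadm the ratios were 1.30, 1.32 and 1.27 without ZA and 1.43, 1.34 and 1.30 with it (difference in log2 ratio 0.06, p = 0.30, two-sided exact permutation test). After adjustment over the 4 ratios these were 1.0 and 0.60. In both ratios 1 ZA library lay furthest from the others, ZA replicate 3 for Cpt1a to Cpt2 and ZA replicate 1 for Acadl to Acadm, without which the latter difference was 0.025.

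In order of FPKM in Ctrl the members were Hadha (62.6), Acadl (45.5), Acadm (35.1), Cpt1a (29.0), Acadvl (27.2), Etfdh (17.9), Hadhb (13.0), Cpt2 (9.22), and Etfa and Acad11 (each 5.20). Only the last 2 overlapped as neighbours in Ctrl. In ZA the first 8 kept that order, Cpt1a and Acadvl then overlapped, and Acad11 (5.92) was above Etfa (5.13) without overlap. Of the 10 members 8 lay above the median level of the genes tested, with Hadha at percentile 90.6 and Etfa lowest at 33.4.

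This order depended on the gene length behind the FPKM values. The length restored from the table was 9685 bases for Etfa and 5922 for Hadhb, where the longest protein-coding transcripts in GENCODE vM21 hold 1392 and 2048. For Hadha it was 2716 against 4017, for Cpt1a 5043 against 4317, and for the remaining 6 the lengths were within 4.04% of each other. With the transcript lengths and the same fragments, the mean over the 6 libraries was 35.9 for Etfa in place of 5.16, 35.6 for Hadhb in place of 12.3, and 41.3 for Hadha in place of 61.1. The ratio of Hadha to Hadhb was then 1.10 to 1.21 over the 6 libraries and that of Etfa to Etfb 0.848 to 0.917. The plain ratio of ZA to Ctrl FPKM within a gene does not depend on this choice, since the length is the same in every library. The log2 fold changes of FPKM + 1 and their p-values can depend on it, and were not refitted with the transcript lengths. Limma-voom, which fits the fragments without a gene length, gave log2 fold changes of -0.16 for Hadhb and -0.074 for Hadha. For Etfa and Cpt1a it gave -0.020 and 0.003. The transcript lengths were an alternative that was chosen after seeing the data. The fragments were not recounted over these transcripts, so levels with a shorter length, as for Etfa and Hadhb, may be too high. Which length is closer to the RNA of these cells was not tested.

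**Figure D4:**
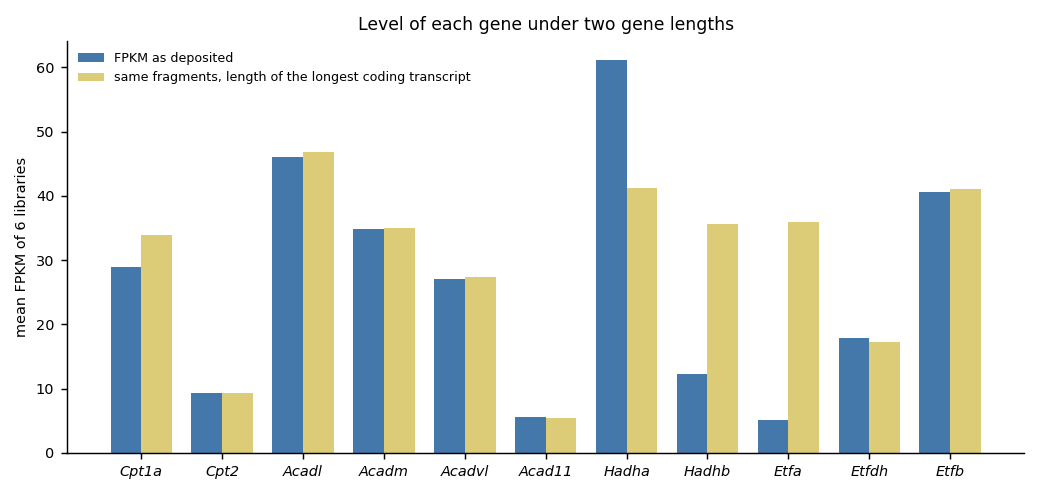
Mean level of each member and of Etfb over the 6 libraries, as deposited (blue) and with the same fragments divided by the length of the longest protein-coding transcript (yellow), on the FPKM scale. Etfa moves from 5.16 to 35.9 and Hadhb from 12.3 to 35.6, near their partners Etfb (41.1) and Hadha (41.3). The fragments were not recounted over these transcripts, so the yellow levels of Etfa and Hadhb may be too high.

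Promoter windows of all 10 members were in RefSeq, each with 250 bases before and 50 after the start. Their G and C content was 50.7% to 70.3% with a median of 59.5%, against a median of 61.0% for the 7913 genes tested that had a window. On either strand the letters GCATGCGC, the core of the site bound by the respiratory gene activator NRF1, were in 3 windows (Acadm, Etfa and Etfdh) and in 2.71% of the 32851 windows searched. The estrogen-related receptor site TCAAGGTCA was in 0 of the 10 and in 0.423% of all windows, and the direct repeat AGGTCANAGGTCA bound by PPAR and RXR was in 0 of the 10 and in 0.0396%. CCAAT was in the 250 bases before the start of 4 members and of 33.8% of all windows, and GGGCGG in those of 6 members and 32.7%. The shares of letters are over all windows searched, including genes not tested here, unlike the median of G and C content. The GC box in the stretch shared by Hadha and Hadhb is counted for both. A match in letters is a description and not a measured site.

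Of 34 other mitochondrial genes of fatty acid and acyl-CoA oxidation 31 were tested. Unadjusted, 1 had a p-value under 0.05, where 12.3% of all genes tested had one. The median log2 fold change was -0.000 over the list. Acsl5, an acyl-CoA synthetase, was at 38.7, 38.1 and 38.4 FPKM in Ctrl and at 40.4, 40.4 and 40.6 in ZA (log2 fold change 0.07, unadjusted p = 0.0119 and adjusted p = 0.256 from limma). The next were Ivd (0.10), Acad12 (0.12) and Acot2 (-0.09), with unadjusted p-values from limma of 0.0507, 0.0581 and 0.109. Those of Ivd and Acad12 were on either side of 0.05 over the alternatives, with lowest values of 0.0261 for Ivd without ZA replicate 1 and 0.0166 for Acad12 without ZA replicate 2. The muscle and brain isoforms of carnitine palmitoyltransferase 1, Cpt1b and Cpt1c, were at mean FPKM values of 0.00970 and 0.114 and were not tested, so Cpt1a was the isoform with signal here.

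Peroxisomes shorten very long chains with their own enzymes. Of 18 peroxisomal genes 14 were tested. Unadjusted, 1 had a p-value under 0.05, where 12.3% of all genes had one, and 0 had an adjusted one under 0.05. The median log2 fold change was 0.001. Amacr, a racemase of branched acyl-CoAs, was at 2.53, 3.41 and 3.14 FPKM in Ctrl and at 3.93, 3.37 and 3.67 in ZA, with overlapping groups and a log2 fold change of 0.21 (unadjusted p = 0.0333 and adjusted p = 0.359 from limma). Without Ctrl replicate 1 the log2 fold change of Amacr was 0.12 (unadjusted p = 0.0949), and its unadjusted p-value was also over 0.05 without ZA replicate 1 (0.103), without ZA replicate 3 (0.0714) and without the filter on low values (0.0683). Acaa1a, a thiolase, was at 0.06 and Abcd3, a transporter of the peroxisomal membrane, at -0.05 on the same scale, both with unadjusted p-values over 0.05. For Acaa1a that p-value was 0.0314 with the replicate block and 0.0121 without ZA replicate 1.

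Of 16 genes of uptake, storage and release 15 were tested, of which 4 were under 0.05 unadjusted, all 4 lower in ZA, where 4.85% of all genes were, and the median log2 fold change was -0.026. Lpl, the lipoprotein lipase that frees fatty acids from triglyceride-rich particles, fell from 852, 844 and 859 FPKM in Ctrl to 786, 776 and 760 in ZA (log2 fold change -0.14, standard error 0.02, adjusted p = 0.0487 from limma). The adjusted p-value of Lpl was over 0.05 without a filter (0.230), after quantile normalization (0.0577), without a trend (0.168), and without Ctrl replicate 1, 2 or 3 (0.142, 0.200 and 0.124) or ZA replicate 2 or 3 (0.190 and 0.133).

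Mgll, the lipase of monoacylglycerols, was at 19.0, 19.1 and 18.7 FPKM in Ctrl and at 17.6, 16.1 and 14.5 in ZA (log2 fold change -0.23, adjusted p = 0.178 from limma, and 0.0431 with voom). Cd36, a fatty acid transporter and scavenger receptor, was at 167, 167 and 174 FPKM in Ctrl and at 161, 156 and 148 in ZA (log2 fold change -0.13, adjusted p = 0.194 from limma). Plin2, a coat protein of lipid droplets, was at 233, 236 and 229 FPKM in Ctrl and at 226, 215 and 213 in ZA (log2 fold change -0.09, adjusted p = 0.235 from limma). None of these 3 overlapped between groups, where 6.76% of all genes tested were lower in ZA without overlap. These 3 were named for their small p-values, so their lack of overlap is not a separate result. None passed the adjusted threshold in the comparison without voom.

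Of 21 genes that control the pathway 14 were tested, with a median log2 fold change of -0.018. At an unadjusted p-value under 0.05, 2 were higher and 2 lower, where 7.50% and 4.85% of all genes were. Angptl4, an inhibitor of lipoprotein lipase that PPARs induce, was at 7.14, 7.67 and 6.72 FPKM in Ctrl and at 6.10, 6.02 and 5.45 in ZA (log2 fold change -0.25, unadjusted p = 0.00183 and adjusted p = 0.113 from limma). Pparg, a nuclear receptor that drives lipid uptake in macrophages, had a log2 fold change of -0.10, its partner receptor Rxrb one of 0.13 and Prkag1, a subunit of the energy sensor AMPK, one of 0.10, with unadjusted p-values from limma of 0.0163, 0.0170 and 0.0344. Adjusted, these were 0.284, 0.290 and 0.360. The unadjusted p-value was over 0.05 for Pparg without Ctrl replicate 1 (0.0607) or 2 (0.0539) and for Rxrb without Ctrl replicate 3 (0.0601) or ZA replicate 1 (0.0515). For Prkag1 it was 0.0525 with median centring, 0.0581 after quantile normalization and 0.0667 to 0.122 without Ctrl replicate 1, Ctrl replicate 3, ZA replicate 2 or ZA replicate 3.

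Several controllers known from liver and muscle were near the floor of the data. Ppara, the receptor that drives beta-oxidation genes in liver, and its coactivator Ppargc1a were at mean FPKM values of 0.00231 and 0.00184. Pdk4, a kinase that turns cells from glucose to fatty acids, was at 0.243, 0.174 and 0.194 FPKM in Ctrl and at 0.0562, 0.0905 and 0.0893 in ZA, from 25 to 35 and from 8 to 13 fragments. The groups of Pdk4 did not overlap, but it was under the level needed for the test. Without that filter its log2 fold change was -0.16 (unadjusted p = 0.000971 and adjusted p = 0.230 from limma). The added 1 is larger than every FPKM value of Pdk4, so this fold change strongly understates the difference in FPKM. These 3 genes, Cpt1b and Cpt1c were chosen after their values were seen.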

How the data were processed

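The authors deposited 1 table of FPKM values from RNA sequencing of 6 BMDM libraries, 3 Ctrl and 3 ZA (VAHTS library kit per the paper, with a SMARTER kit also named in the labels, paired-end reads on NovaSeq). The submitters' processing notes name the build mm9. The aligner, counting program, strand setting and annotation are not given in the sources used here, so reads of overlapping genes may not be told apart. RefSeq and GENCODE vM21 serve GRCm38 and were used for names, lengths, neighbours and promoters only.

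In most rows the separators were missing. Each row was divided where the digits allow it, and among several readings the one kept was that whose values all equal whole fragments scaled by 1 gene length and the library totals. This restored 35416 of 35434 rows, the 11 intact rows identically, and 18 were left out. Of 866 simulated rows 859 were restored, 0 wrongly. Whole fragments recovered this way hold 99.7% of each library total.

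limma 3.58.1 (R 4.3.3, two-sided, eBayes with a trend) was run on log2(FPKM + 1) of genes that averaged 1 FPKM or more, a scale that understates changes of low genes. The fit was also run on simulated data, whose changes were all larger than those of the members. That run does not cover differences as small as those reported here. Within-library ratios were compared by exact permutation in SciPy 1.17.1. Libraries of a group were not duplicates (chi-square per gene 3.52 to 9.73). The genes named by rule are the 10 members, the 4 tested genes of each list with the smallest p-value, and Etfb; 1 of the peroxisomal genes so chosen is not reported here. Cell type markers and genes that adjoin or overlap a member are named besides, and 5 genes that the text says were chosen after their values were seen. The members and lists were chosen with earlier results of these data known. The alternatives were a pseudocount of 0.1, no filter or a mean FPKM of 5, median centring, quantile normalization, no trend, voom, the replicate block and leaving out each library.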

Additional observations from a re-analysis of the deposited data

How the results depend on the processing

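Adjusted p-values of 36 genes were under 0.05 in limma. There was 1 without a filter and 1 without a trend in the variance prior, 20 after quantile normalization, 132 with voom, and 0 to 25 when a library was left out (1 without Ctrl replicate 1, 1 without Ctrl replicate 2, 6 without Ctrl replicate 3, 0 without ZA replicate 2 and 4 without ZA replicate 3). Of the members 0 had one, and 1 (Hadhb, -0.16) with voom. The signs of Acadl, Acadm, Acadvl, Acad11, Hadha, Hadhb and Etfa held in every alternative. Fold changes near 0 turned sign. Cpt1a was at -0.009 after centring and -0.001 after quantile normalization, and Etfdh at -0.012 and -0.013. Leaving out a library gave -0.022 to 0.031 for Cpt1a, -0.010 to 0.056 for Cpt2 and -0.019 to 0.038 for Etfdh. The log2 ratio of Etfa to Etfb then differed by -0.030 to 0.029, that of Cpt1a to Cpt2 by -0.084 to 0.044 and that of Acadl to Acadm by 0.025 to 0.090. The cause was not tested.

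With the replicate block 78 genes were under 0.05 after adjustment, and 0 members. The unadjusted p-value of Hadhb was 0.00284, of Acad11 0.0142 and of Hadha 0.0414. Across genes, the Ctrl and ZA libraries of 1 number deviated from their means with correlations of 0.284, 0.0393 and 0.28. The labels give only the number and do not say whether such libraries were paired. The main fit left any shared deviation out, and its source was not tested. Paired differences of the 4 ratios had exact sign-flip p-values of 0.25 to 1.0, and 3 pairs cannot go below 0.25. The block changed no call among the members, and of the other named genes it brought Acaa1a (0.0314) and Acad12 (0.0498) under an unadjusted 0.05.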
